A study of Homo sapiens with 9 samples.

Results

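The 39 genes described here carry out and direct the repair of DNA double-strand breaks and interstrand crosslinks. They were chosen by name from the Fanconi pathway, homologous recombination, end joining and damage signalling, and each measured gene was represented by the probe set that carried its symbol alone and had the highest mean over all arrays. Of the 39, 35 were measured among 18239 genes in all. Expression of FANCA, FANCD2, BRCA2 and RBBP8 was not analysed here. The cells were K562, an established human chronic myeloid leukaemia line with erythroid features, in 3 groups of 3 arrays: cells transduced with the Del52 form of calreticulin (CALR), with the Ins5 form, and with the wild-type form (replicates 1 to 3 in each). Calreticulin is a chaperone of the endoplasmic reticulum. Both mutant forms, a deletion and an insertion, give the protein a different C-terminus and occur in patients with myeloproliferative neoplasms. The study's title names the unfolded protein and oxidative stress responses as its subject. All 3 groups shared the retroviral transduction, in 4 cycles 12 h apart, and the selection on the surface marker NGFR after a further 36 h in culture. Purity was above 90% at 48 h after selection. No group of untransduced cells was analysed here, K562 cells keep their own CALR gene, and nothing in the labels says that replicates came from separate transductions, so p-values measure the spread between these samples, which may be technical.

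Crosslinks stall replication forks. The Fanconi core complex is a ubiquitin ligase that marks the FANCI and FANCD2 pair, and the marked pair directs nucleases to the lesion. The broken end is then resected, starting with MRE11, RAD50 and NBN (the MRN complex), and BRCA1, PALB2, BRCA2 and a further set of recombination mediators prepare it for strand invasion. Breaks outside S and G2 phase are mostly joined directly by the Ku proteins, PRKDC, XRCC4 and LIG4, while the kinases ATM and ATR signal the damage through H2AX, MDC1 and the checkpoint kinases. Much of this machinery acts through protein modification, which transcript levels do not show.

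Values are the authors' RMA values per probe set on the log2 scale, so a difference of 1 is a doubling of signal. One property of the deposited values bears on every test below. In all 49386 of 49386 probe sets, the mean of the 3 arrays numbered 1, the mean of those numbered 2 and the mean of those numbered 3 were equal within 1e-04, whereas the 3 group means were equal in 0. A difference between replicate numbers had therefore been taken out of the values before deposit, in a step not given in the sources used here. A purely additive removal would leave differences between group means as they were, but whether it was additive cannot be tested here. A deviation of 1 array reappears, with the opposite sign, in the other arrays of its number, so which array deviated cannot be told from these values. The limma fit with group means counts 6 residual degrees of freedom where 4 remain, and its p-values are too small, and SDs within groups leave out the difference removed. The same fit with the replicate number as a block gives the same fold changes with larger errors, and its 95% interval follows each leading value as the block interval.

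The label K562 was set against erythroid markers. Of the 18 listed, 13 were measured, with summed levels of 108.1 to 110.8 in Del52, 107.4 to 108.8 in Ins5 and 106.6 to 108.1 in wild type. The fetal and embryonic globins HBG1 and HBE1, which K562 cells are known to express, averaged 11.9 and 11.1 over the 9 arrays and the erythroid transcription factor GATA1 8.25, while EPB42 and EPOR averaged 2.94 and 4.10. Markers of other cells had summed levels of 46.4 to 46.6 in Del52, 46.6 to 47.6 in Ins5 and 46.3 to 47.2 in wild type for 13 myeloid genes. For 12 lymphoid genes the sums were 45.4 to 48.0, 46.1 to 47.9 and 44.2 to 48.6 in the same groups, and for 13 stromal and epithelial genes 57.6 to 58.8, 57.4 to 58.1 and 57.3 to 58.7. The means of 23 nonspecific control probe sets graded by GC content ran over 1.56 to 6.35, with a median of 2.01. Of the 35 repair genes, 21 lay below the highest of these controls and 0 below their median, so the level of a dim gene may include nonspecific signal. CALR averaged 7.42 for Del52, 7.40 for Ins5 and 7.57 for wild type in a probe set whose place relative to the transgene is unknown here. The selection marker NGFR averaged 3.40 over the 9 arrays, below the array medians of 3.73 to 3.76, in a probe set whose place is likewise unknown.

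No repair gene passed the test in any comparison. At a Benjamini-Hochberg adjusted limma p under 0.05, 0 of 35 were called in either mutant against wild type or between mutants, and 0% of all 18239 genes were called in each. The moderated F test over all groups also called 0 repair genes, with a smallest adjusted p of 0.652. At an unadjusted p under 0.05 that test had 3 repair genes (FANCB, H2AX and PRKDC), where 7.23% of all genes were past it. At an unadjusted limma p under 0.05, 1 of 35 repair genes lay past the threshold in Del52 against wild type, where 7.05% of all genes did. There was 1 in Ins5 against wild type, where the share over all genes was 7.41%, and 2 in Del52 against Ins5, where it was 5.77%. With the replicate block, 1 repair gene remained in each comparison, beside 2.12%, 2.12% and 1.33% of all genes. For both mutants averaged, against wild type, 2 repair genes (FANCB lower, H2AX higher) lay past the threshold, beside 7.97% of all genes, and 1 with the block, beside 2.39%. These counts are near the background of all genes. In bulk RNA of this kind, fewer cells that express a gene and less RNA per cell cannot be told apart.

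The directions were mixed in Del52 and mostly negative in Ins5. In Del52 against wild type, 18 of 35 repair genes had log2 fold changes above 0 and 17 below, with a median of 0.002 and a range of -0.38 to 0.23, beside a median of 0.01 over all genes, of which 54.6% were above 0. In Ins5 against wild type, 12 were above 0 and 23 below, with a median of -0.083 and a range of -0.43 to 0.13, beside 0.02 and 59.6% above 0 over all genes. In Del52 against Ins5, 19 were above 0 and 16 below, with a median of 0.021, beside -0.01 and 45.4%. For the mean of both mutants, 14 were above 0 and 21 below, with a median of -0.021, beside 0.015 and 57.9%. Both comparisons with wild type use the same 3 wild-type arrays. The Ins5 median rests on replicate 1: with all 3 arrays of that number left out it was 0.013.

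**Figure D1:**
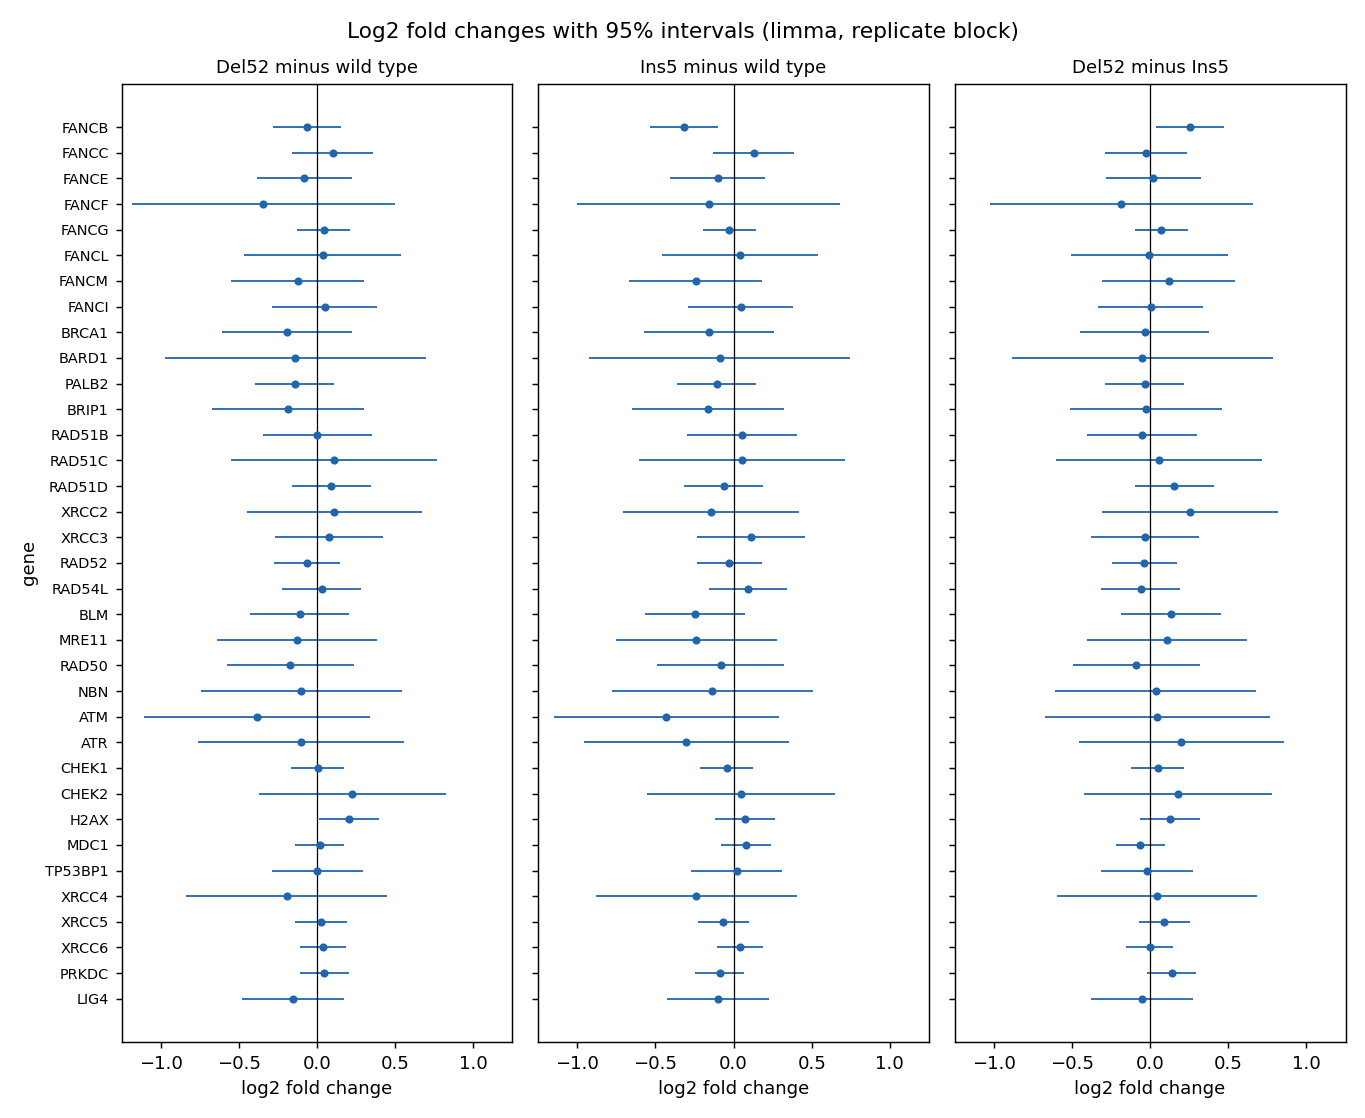
Log2 fold change of each of the 35 measured repair genes (horizontal axis, log2 units), grouped by role, for Del52 over wild type, Ins5 over wild type and Del52 over Ins5; points are limma estimates and bars are 95% intervals from the fit with the replicate block. Most intervals cross 0, and those of H2AX in Del52 against wild type and of FANCB in Ins5 against wild type and Del52 against Ins5 do not.

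Few repair genes had groups whose arrays did not overlap. In Del52 against wild type, 1 repair gene (H2AX) was higher on every Del52 array, where 6.23% of all genes were, and 0 were lower on every Del52 array, where 4.36% were. In Ins5 against wild type, MDC1 was higher on every Ins5 array and FANCB lower on every Ins5 array, 1 gene each way, where 8.16% and 3.3% of all genes were. In Del52 against Ins5, FANCB and PRKDC were higher on every Del52 array and MDC1 lower, where 3.81% and 6.28% of all genes were. For both mutants together against wild type, 0 repair genes were higher or lower on every array, where 2.76% and 1.26% of all genes were.

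Among the 7 measured members of the Fanconi core complex, FANCB had the smallest p. FANCB, an X-linked gene whose product holds the catalytic module of the core complex together, read 5.80, 5.63 and 5.78 in Del52, 5.43, 5.62 and 5.41 in Ins5, and 5.79, 5.78 and 5.84 in wild type. All Ins5 arrays lay below all arrays of both other groups, while Del52 overlapped wild type. Mean levels were 5.74 ± 0.10 for Del52, 5.48 ± 0.12 for Ins5 and 5.80 ± 0.03 for wild type (SD over 3 arrays). The log2 fold change of Ins5 against wild type was -0.32 ± 0.07 (SE; limma adjusted p = 0.466, block interval -0.53 to -0.10). That of Del52 against Ins5 was 0.25 ± 0.07 (limma adjusted p = 0.841, block interval 0.04 to 0.47), and that of Del52 against wild type was -0.06 (limma adjusted p = 0.944). With each replicate number left out, the Ins5 difference lay between -0.39 and -0.26. FANCB has 1 probe set, so no other probe set bears on it.

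The promoter sequences of FANCB and H2AX, which lead the comparisons with wild type, are shown for the 150 bases before the start of each gene, read 5′ to 3′ along the gene, from RefSeq on GRCh38.p14. FANCB lies on the minus strand at chrX:14873070-14873219 and H2AX on the minus strand at chr11:119095466-119095615. Capitals mark GGGCGG or CCGCCC (the GC box on either strand) and CCAAT or ATTGG (the CCAAT box on either strand).
FANCB: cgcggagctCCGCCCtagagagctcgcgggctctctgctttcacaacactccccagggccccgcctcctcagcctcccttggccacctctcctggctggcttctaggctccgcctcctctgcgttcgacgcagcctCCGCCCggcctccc
H2AX: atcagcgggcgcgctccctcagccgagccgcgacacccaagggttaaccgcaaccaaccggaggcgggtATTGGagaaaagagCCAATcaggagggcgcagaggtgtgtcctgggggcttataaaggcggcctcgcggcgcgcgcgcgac
The FANCB window holds 2 GC boxes and 0 CCAAT boxes, and the H2AX window holds 2 CCAAT boxes, 1 on each strand, and 0 GC boxes. Windows were found for 35 of the 39 genes, among them the unmeasured FANCA, FANCD2, BRCA2 and RBBP8 but not FANCI, NBN, XRCC5 or PRKDC. There were 50 windows in all. A CCAAT box occurs in 38% of these and in 23.5% of 35116 windows of all genes, a GC box in 46% and 36.8%, and 1 of the E2F letters TTTCCCGC or TTTGGCGC on either strand in 2% and 1.22%. These matches describe the letters in the window and do not locate binding.

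For the other core complex genes the groups overlapped in every comparison. FANCF, an adaptor of the complex, read 5.86, 5.43 and 5.96 in Del52, 5.90, 5.64 and 6.27 in Ins5, and 6.03, 6.71 and 5.55 in wild type. Wild type holds the highest of these values, and the groups overlap throughout. The log2 fold change of FANCF in Del52 against wild type was -0.34 ± 0.30 (SE; limma adjusted p = 0.909, block interval -1.18 to 0.50). It rests on replicate 2, since it was 0.12 with the 3 arrays of that number left out and -0.04 without wild-type replicate 2 alone. The 3 probe sets of FANCF gave -0.34, -0.30 and -0.05 in Del52 against wild type, and -0.23 when averaged. In Ins5 against wild type they gave -0.16, -0.18 and 0.10. FANCC, part of the substrate-recruiting side of the complex, had 0.10 in Del52 and 0.13 in Ins5 against wild type (limma adjusted p = 0.908 and 0.834). FANCM, the DNA translocase that anchors the complex, had -0.12 in Del52 and -0.24 in Ins5. FANCE, FANCG and FANCL, the ubiquitin ligase subunit, lay between -0.10 and 0.04 in both. None of these passed. Of the pair that the complex modifies, FANCI was measured and read 7.73, 7.70 and 7.50 in Del52, 7.45, 7.78 and 7.68 in Ins5, and 7.69, 7.39 and 7.69 in wild type. Its groups overlap, with fold changes of 0.05 in Del52 and 0.05 in Ins5 against wild type.

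**Figure D2:**
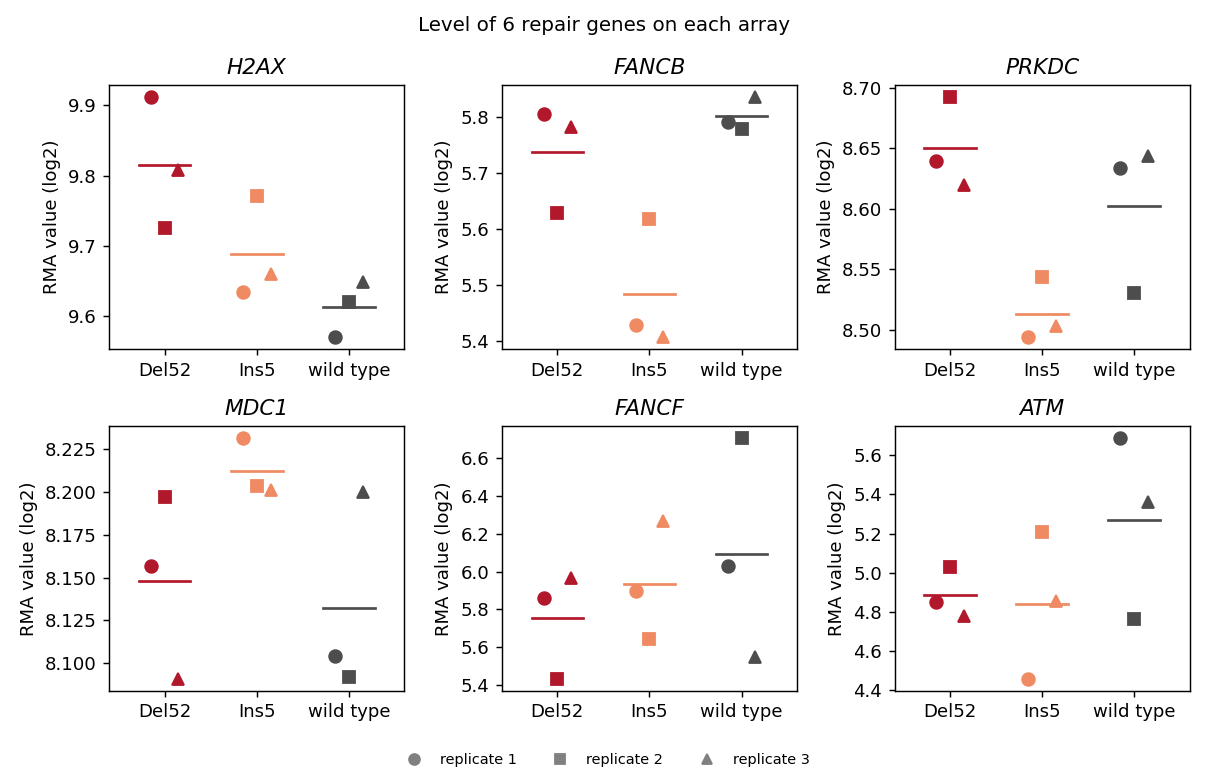
Level (log2, vertical axis) of H2AX, FANCB, PRKDC, MDC1, FANCF and ATM on each array; points are arrays, marked by replicate number, and lines are group means for Del52, Ins5 and wild type. H2AX is higher on all 3 Del52 arrays than on all wild-type arrays, FANCB is lower on all 3 Ins5 arrays than on all others, and FANCF and ATM spread widely within groups.

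All 4 measured genes that form the BRCA1 and PALB2 axis had log2 fold changes below 0 in both comparisons with wild type, with medians of -0.165 in Del52 and -0.134 in Ins5, and none passed. BRCA1, which promotes resection and recruits PALB2, read 6.51, 6.72 and 6.65 in Del52, 6.50, 6.85 and 6.64 in Ins5, and 7.10, 6.55 and 6.82 in wild type. Wild-type replicate 1 is the highest of these arrays and wild-type replicate 2 lies among the mutants. PALB2, which links BRCA1 to BRCA2, read 6.13, 5.96 and 5.83 in Del52, 5.92, 6.02 and 6.08 in Ins5, and 6.05, 6.11 and 6.19 in wild type, with log2 fold changes of -0.14 and -0.11 (limma adjusted p = 0.813 and 0.864). The groups overlap in both comparisons. BARD1, the partner of BRCA1, had -0.14 and -0.09, and the helicase BRIP1 had -0.19 and -0.16. For BRCA1 the Del52 difference of -0.19 (limma adjusted p = 0.879) was 0.0 with the 3 arrays of replicate 1 left out.

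By their brightest probe sets, the recombination mediators RAD51B, RAD51C, RAD51D, XRCC2 and XRCC3 were above 0 in Del52 against wild type, 5 of 5 with a median of 0.092. In Ins5, 3 of 5 were above 0 with a median of 0.052. RAD51B counts as above 0 in Del52 at 0.003 ± 0.12 (SE). The direction depends on the probe set. In Del52 the others of RAD51B gave 0.01, -0.09 and -0.04, and those of RAD51D 0.04, -0.03, 0.04 and 0.07. The other of XRCC2 gave -0.01, and those of RAD51C were all above 0. RAD51D read 6.01, 5.93 and 5.91 in Del52, 5.81, 5.66 and 5.91 in Ins5, and 5.78, 6.01 and 5.78 in wild type. The lowest Del52 array and the highest Ins5 array both read 5.91, and the difference of 0.15 had a block interval of -0.10 to 0.41 (limma adjusted p = 0.952). XRCC2 had the widest gap between mutants, 0.25 in Del52 against Ins5, with an interval under the block of -0.31 to 0.82. RAD51B, RAD51C and XRCC3 had 0.00, 0.11 and 0.08 in Del52 against wild type, and none passed. Of the other recombination genes, BLM, a helicase that dissolves joint molecules, read 6.70, 6.61 and 6.72 in Del52, 6.35, 6.59 and 6.68 in Ins5, and 6.95, 6.81 and 6.60 in wild type. The lowest arrays of BLM are in Ins5, but the wild-type replicate 3 array overlaps them. Its Ins5 difference of -0.25 had a block interval of -0.56 to 0.07 (limma adjusted p = 0.680). RAD52 and the recombination motor RAD54L lay between -0.06 and 0.09 in both.

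The MRN complex senses and trims broken ends. By their brightest probe sets, 3 of 3 genes had log2 fold changes below 0 in both comparisons with wild type, with medians of -0.128 in Del52 and -0.137 in Ins5. The other probe sets of NBN gave 0.01, -0.04, -0.08 and 0.02 in Del52 and were all below 0 in Ins5. Those of MRE11 gave -0.08, -0.02, -0.12 and 0.05 in Del52 and -0.18, 0.02, -0.24 and -0.05 in Ins5. Those of RAD50 were all below 0 in both. MRE11, the nuclease, read 6.64, 6.45 and 6.76 in Del52, 6.28, 6.50 and 6.74 in Ins5, and 6.94, 6.92 and 6.37 in wild type. NBN, which recruits ATM, read 7.49, 7.32 and 7.73 in Del52, 7.34, 7.33 and 7.76 in Ins5, and 7.77, 7.95 and 7.11 in wild type. RAD50, the ATPase that tethers ends, read 8.02, 8.18 and 7.97 in Del52, 7.97, 8.30 and 8.16 in Ins5, and 8.44, 7.93 and 8.30 in wild type. Wild type holds both the highest and the lowest arrays of NBN and RAD50, and the groups overlap for all 3 genes. None passed. Replicate 3 minus replicate 2 was 0.31 for Del52, 0.25 for Ins5 and -0.56 for wild type in MRE11, and 0.40, 0.43 and -0.83 in NBN. For RAD50 the differences were -0.22, -0.15 and 0.37, so RAD50 differed in the other direction from its partners in each group. The 3 differences of a gene sum to 0 by the construction of the values, so a difference in wild type alone and differences in both mutants cannot be told apart.

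**Figure D3:**
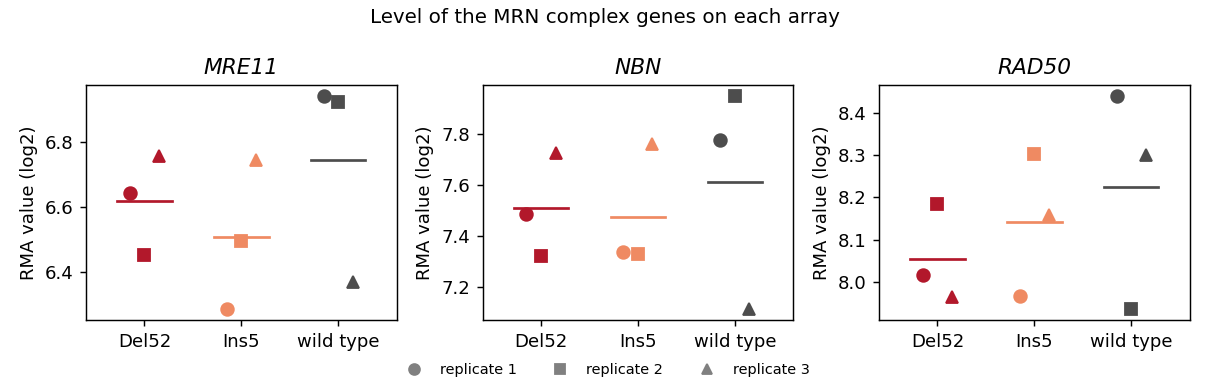
Level (log2, vertical axis) of MRE11, NBN and RAD50 on each array in Del52, Ins5 and wild type; points are arrays, with a symbol for each replicate number, and lines are group means. Replicate 3 lies above replicate 2 in both mutants for MRE11 and NBN and below it for RAD50, and wild type does the reverse, as it must where the 3 differences sum to 0.

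The sequences of MRE11 and RAD50, from the same complex, are shown for the 150 bases before each start, with capitals as above. MRE11 lies on the minus strand at chr11:94493845-94493994 and RAD50 on the plus strand at chr5:132556827-132556976.
MRE11: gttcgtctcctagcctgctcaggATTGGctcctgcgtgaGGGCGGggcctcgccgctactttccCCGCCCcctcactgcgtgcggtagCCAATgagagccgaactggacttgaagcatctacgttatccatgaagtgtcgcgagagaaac
RAD50: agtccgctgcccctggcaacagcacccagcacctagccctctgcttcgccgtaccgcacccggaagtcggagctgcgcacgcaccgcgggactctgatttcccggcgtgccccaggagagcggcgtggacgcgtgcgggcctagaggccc
The MRE11 window holds 2 CCAAT boxes and 2 GC boxes, and the RAD50 window holds 0 of each.

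Of the 7 damage signalling genes, 5 had log2 fold changes above 0 in Del52 against wild type. H2AX, the histone variant phosphorylated around breaks, read 9.91, 9.72 and 9.81 in Del52, 9.63, 9.77 and 9.66 in Ins5, and 9.57, 9.62 and 9.65 in wild type. All Del52 arrays lay above all wild-type arrays, and Ins5 overlapped both. Mean levels were 9.81 ± 0.09 for Del52, 9.69 ± 0.07 for Ins5 and 9.61 ± 0.04 for wild type (SD over 3 arrays). The log2 fold change of Del52 against wild type was 0.20 ± 0.06 (SE; limma adjusted p = 0.603, block interval 0.01 to 0.39). It was 0.13 to 0.25 over the alternatives that leave out arrays or replicate numbers, and H2AX has 1 probe set. The gene produces a transcript without a poly(A) tail in S phase beside a polyadenylated one, and the levels here cannot tell them apart.

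MDC1, the scaffold that reads the phosphorylated histone, read 8.157, 8.197 and 8.091 in Del52, 8.231, 8.203 and 8.201 in Ins5, and 8.104, 8.092 and 8.200 in wild type. The Ins5 arrays lie above all others, though the lowest clears the highest wild-type array only in the last decimal. The difference of 0.08 from wild type had a block interval of -0.08 to 0.24 (limma adjusted p = 0.779). ATM, the kinase that responds to breaks, read 4.85, 5.03 and 4.78 in Del52, 4.46, 5.21 and 4.86 in Ins5, and 5.69, 4.76 and 5.36 in wild type. The wild-type arrays span most of its range, and the log2 fold changes of -0.38 in Del52 and -0.43 in Ins5 had limma adjusted p = 0.847 and 0.783. In Del52 the value moved to -0.17 when wild-type replicate 1 was left out, to -0.64 when wild-type replicate 2 was, and to -0.16 over the mean of all ATM probe sets. In Ins5 the same settings gave -0.22, -0.68 and -0.13, and it was -0.24 without Ins5 replicate 1. ATR, which responds to stalled forks, had -0.10 and -0.30, and CHEK2, the effector kinase of ATM, had 0.23 and 0.05. CHEK1, the effector of ATR, had 0.01 and -0.04, and TP53BP1, which protects ends from resection, had 0.00 and 0.02. Neither CHEK1 nor TP53BP1 passed.

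In end joining, PRKDC had the smallest limma p in Del52 against Ins5 and did not pass. PRKDC, the catalytic subunit of the DNA-dependent protein kinase, read 8.64, 8.69 and 8.62 in Del52, 8.49, 8.54 and 8.50 in Ins5, and 8.63, 8.53 and 8.64 in wild type. All Del52 arrays lay above all Ins5 arrays, as they did for 3.81% of all genes, and wild type overlapped both. The log2 fold change of Del52 against Ins5 was 0.14 ± 0.05 (SE; limma adjusted p = 0.841, block interval -0.02 to 0.29). It was 0.12 to 0.15 over the alternatives that leave out arrays or replicate numbers. The 4 probe sets of PRKDC gave 0.14, 0.10, 0.40 and 0.22, all above 0. XRCC5, the larger Ku protein, read 9.14, 9.05 and 9.14 in Del52, 8.97, 9.03 and 9.05 in Ins5, and 9.10, 9.14 and 9.02 in wild type, with 0.09 in Del52 against Ins5 (limma adjusted p = 0.952). Its partner XRCC6 had the narrowest spread of the 35 genes, with a range of 0.12 over the 9 arrays. LIG4, the ligase that seals the ends, read 3.42, 3.75 and 3.51 in Del52, 3.64, 3.64 and 3.55 in Ins5, and 3.82, 3.49 and 3.82 in wild type. Its groups overlap, and it had -0.15 and -0.10 (limma adjusted p = 0.876 and 0.947). XRCC4, the scaffold of the ligase, had -0.19 and -0.24, and all 4 of its probe sets were below 0 in both comparisons with wild type. Neither LIG4 nor XRCC4 passed.

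Probe sets of 1 gene often disagreed. The 35 genes had 108 probe sets, and 24 genes had several. Of these 24, 8 had fold changes of 1 sign over all probe sets for Del52 against wild type, 12 for Ins5 against wild type and 9 for Del52 against Ins5. No probe set passed an adjusted limma p under 0.05, over 45253 probe sets. At an unadjusted p under 0.05 there were 1, 8 and 9 of the 108 in these comparisons, beside 6.87%, 7.41% and 6% of all probe sets, and with the replicate block 1, 4 and 4, beside 2.08%, 2.32% and 1.59%. BRCA1 had 5 probe sets, all below 0 in both comparisons with wild type. For FANCI, the dimmest probe set, at a mean level of 4.97, gave 0.35 in Del52 against Ins5 (limma adjusted p = 0.772) while the brightest gave 0.01. For FANCM, a probe set at 2.74 gave -0.26 in Ins5 against wild type (limma adjusted p = 0.530), and the brightest gave -0.24.

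The median SD of the repair genes within groups was 0.155, beside 0.0977 over all genes. The share of variance between groups had a median of 18.2%, beside 21.3%. The repair genes were not matched to other genes for level, so these values do not show that they vary more than genes of like level. The SD ran from 0.0391 for XRCC6 to 0.414 for FANCF. The share between groups was highest for FANCB, at 78.2%, PRKDC, at 70.6%, and H2AX, at 66.7%. FANCF, ATM, BARD1 and ATR had the widest ranges over the 9 arrays, at 1.27, 1.23, 1.13 and 1.03. Of the 35 genes, 9 had their lowest value on Ins5 replicate 1 and 9 on wild-type replicate 2. On wild-type replicates 1 and 3, 9 and 10 had their highest. Since the arrays of a number balance, an extreme on a wild-type array can mirror smaller shifts shared by both mutants of that number. The share of all genes with extremes on these arrays was not computed.

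**Figure D4:**
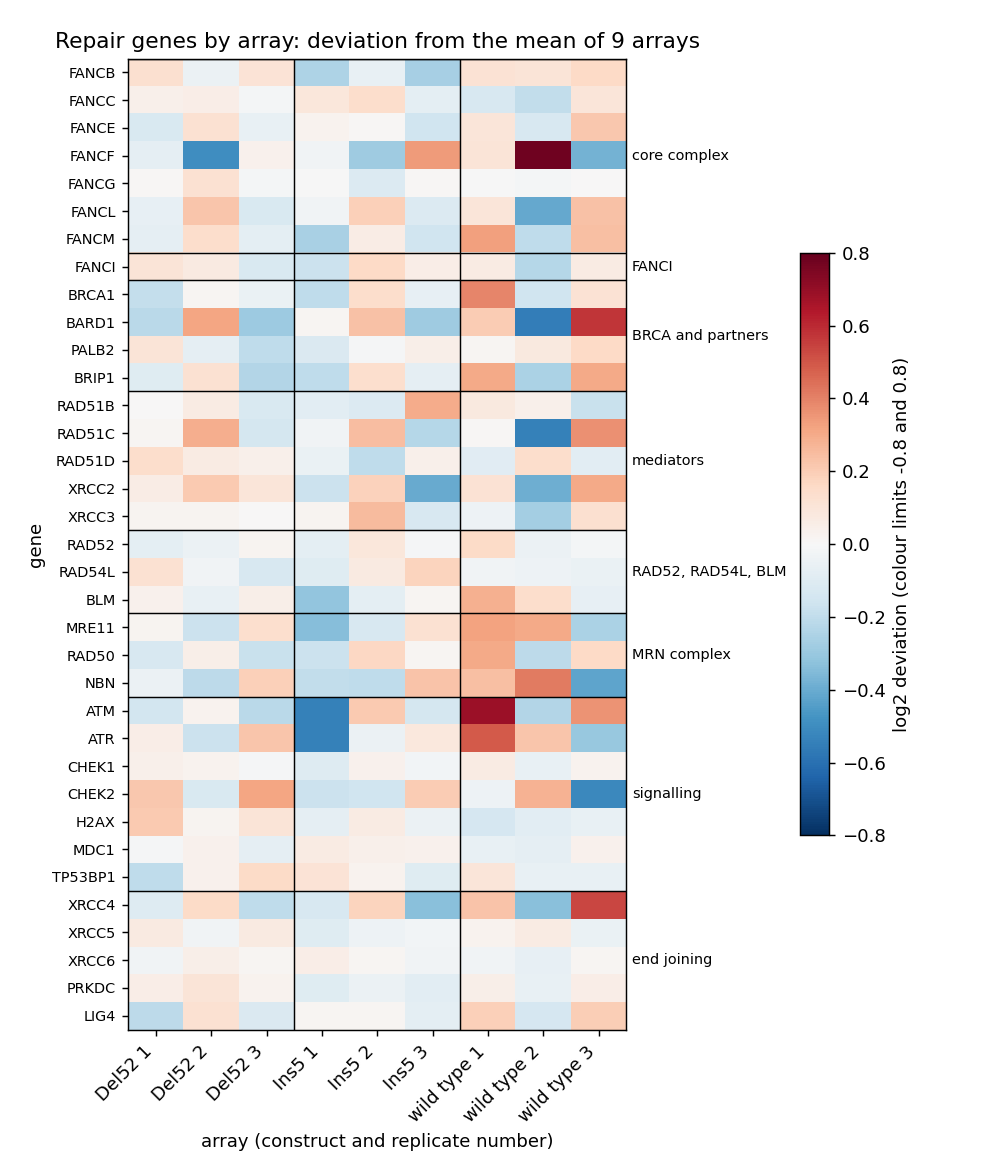
Level of each of the 35 measured repair genes on each array, as the difference from the gene's mean over the 9 arrays (colour, log2 units); columns are Del52, Ins5 and wild-type replicates 1 to 3, and genes are grouped by role. Wild-type replicates 2 and 3 carry opposite colours for many genes, and wild type shows the strongest colours. Shifts shared by both mutants of a replicate number would give the same picture, since the arrays of a number balance.

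Replicates 2 and 3 differed widely for several of these genes, and these differences too sum to 0 over the groups. Replicate 3 minus replicate 2 was -0.60 for Del52, -0.52 for Ins5 and 1.13 for wild type in BARD1, and 0.53, 0.62 and -1.15 in FANCF. The first principal component over all genes held 70.5% of the variance. Its scores in Del52, Ins5 and wild type were -0.30, -0.27 and 0.57 for replicate 2 and 0.27, 0.30 and -0.57 for replicate 3. These scores balance within each number too, so they do not show which group shifted. Signal of the actin control, 3′ minus 5′, was 1.18, 1.33 and 1.24 in Del52, 1.22, 1.38 and 1.24 in Ins5, and 1.39, 1.08 and 1.31 in wild type, with wild-type replicate 2 lowest. The control is among the probe sets with equal replicate means. A low value on wild-type replicate 2 and high values on both mutants of that number therefore cannot be told apart. The part of this control in these differences was not tested.

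With that component as a covariate, FANCF was the only repair gene called in Del52 against wild type (log2 fold change -0.39 ± 0.04 SE, limma adjusted p = 0.0345), among 4 genes called in all. The call was lost with the replicate block added (limma adjusted p = 0.636) and with any 1 Del52 or wild-type array left out, while the fold change stayed at -0.39 with the block and between -0.40 and -0.35 without 1 array. The errors were larger in those fits, and the component is itself computed from these arrays.

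Further Fanconi and break repair genes outside the 39, and genes of replication, were examined beside them. None passed an adjusted limma p under 0.05 in any comparison. Of 63 measured further Fanconi and break repair genes, 25 were above 0 and 38 below in Del52 against wild type, with a median of -0.029, and 30 and 33 in Ins5 against wild type, with a median of -0.007. RMI1 and RIF1 are named for the smallest limma p of the 63 in Del52 and in Ins5 against wild type. At an unadjusted limma p under 0.05 the list had 5 genes in Del52 and 1 in Ins5, beside 7.05% and 7.41% of all genes. With the block it had 3 and 1, beside 2.12% and 2.12%. RMI1 has 4 probe sets and RIF1 has 7, and only the brightest of each is given. RMI1, which acts with BLM to dissolve joint molecules, read 6.20, 6.47 and 6.16 in Del52, 6.41, 6.57 and 6.51 in Ins5, and 6.91, 6.48 and 6.85 in wild type. Its Del52 arrays lay below its wild-type arrays, with a log2 fold change of -0.47 (limma adjusted p = 0.603, block interval -0.84 to -0.10). RIF1, which acts with TP53BP1 to protect broken ends, read 7.50, 7.56 and 7.76 in Del52, 7.24, 7.49 and 7.10 in Ins5, and 7.86, 7.54 and 7.74 in wild type. Its Ins5 arrays lay below its wild-type arrays, with -0.43 (limma adjusted p = 0.573, block interval -0.80 to -0.07). The 25 measured replication genes had 20 values above 0 in Del52 against wild type, with a median of 0.061, and 13 in Ins5, with a median of 0.003. Of them GINS1, a subunit of the replicative helicase, had the smallest limma p in Del52, with 0.21 (limma adjusted p = 0.631, block interval -0.005 to 0.42). With the block, 0 of the 25 had an unadjusted limma p under 0.05 in Del52 against wild type.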

How the data were processed

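The authors deposited log2 values for each probe set and array. The submitters' processing notes name Partek and RMA, with no version. The highest value, 12.2, sets the base of the logarithm. Of 49386 probe sets, 93 controls were left out, and 45253 with 1 gene symbol gave 18239 genes, each by its brightest probe set. Array medians lay between 3.73 and 3.76, and the number of arrays limits the precision.

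All genes were fitted together with limma 3.58.1 in R 4.3.3 (no block, a mean per group, moderated variances), with Benjamini-Hochberg adjustment over all 18239. The test was also run on simulated data with independent noise for each gene. Those data lack the component shared by the real arrays, so they do not show how the test behaves here. Since replicate means are equal in the deposited values, same-numbered arrays are tied to each other by construction. Their correlations, from -0.92 to 0.64, therefore cannot show whether the numbers pair samples. The members and lists were chosen with earlier results of these data known. Array values are given for the 5 members with the smallest p in each comparison, the member with the smallest F test p in each list and members past the threshold in any setting. RAD50 and NBN were added, after their values were seen, to complete the MRN complex. Leaving out whole replicate numbers, and the block with the covariate, were chosen after seeing the data.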

Additional observations from a re-analysis of the deposited data

How the results depend on the processing

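Results were recomputed with quantile normalization, median centring, all probe sets averaged, brighter genes, an intensity trend, only the arrays compared, a threshold of 0.1, the replicate block, the first principal component as covariate, and arrays or replicate numbers left out. With the component as covariate, 4 genes were called in Del52 against wild type, 7 in Ins5 against wild type and 68 in both mutants against wild type. Of the repair genes, 1 was called in Del52 against wild type and 1 in both mutants against wild type, FANCF each time (-0.39 in Del52, limma adjusted p = 0.0345). The replicate block with that covariate called 0 repair genes. With the replicate block alone, 0 genes were called, and fold changes were the same. Without 1 array or 1 replicate number, the median fold change of repair genes ran from -0.048 to 0.032 in Del52 against wild type, -0.125 to 0.013 in Ins5 against wild type, -0.026 to 0.073 in Del52 against Ins5 and -0.1 to 0.021 in both mutants against wild type. In Del52 against wild type FANCF turned direction, to 0.12 without replicate 2 (range -0.72 to 0.12 without arrays), and the BRCA1 difference vanished, at 0.0 without replicate 1 (range -0.38 to 0.0). The cause was not tested. The small number of arrays limits the precision.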
